A study of Mus musculus with 35 samples.

Results

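The response to a high-fat high-sugar diet was compared between the hypothalamus and the cortex, as the difference of differences (HFHS minus SC in hypothalamus) minus (HFHS minus SC in cortex), for every gene with enough reads. A positive value of this interaction means that the log2 change under HFHS was higher in hypothalamus than in cortex, and a negative value that it was lower. Of the 35 libraries, 23 entered the contrast: 6 of hypothalamus on standard chow (SC), 5 of hypothalamus on HFHS, 6 of cortex on SC and 6 of cortex on HFHS. The hippocampus libraries shared the model and its estimate of the spread. The contrast was fitted on 21574 of 54119 genes, and on 21343 genes once 3 libraries with short transcripts were left out, which brought each of the 4 groups to 5 libraries. All animals were male C57BL/6JRj mice that went on SC or on the 58% HFHS diet at 8 to 9 weeks of age and stayed on it for 4 months. Each library came from tissue of 2 animals pooled, so the spread below is that between pools. Cells carrying ACSA2, an antigen on the surface of astrocytes that Atp1b2 encodes, were pulled out with magnetic beads, on MS columns for hypothalamus and on LS columns with larger volumes for cortex. Column type and region therefore cannot be told apart in any level, although both diets of a region were handled alike.

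Astrocytes take up glucose from the blood, break much of it down by glycolysis, pass lactate to neurons, oxidise fatty acids and clear glutamate and potassium. Those of the hypothalamus lie beside the neurons that read leptin, insulin and nutrients, and a diet rich in fat is known to change their shape and their glial fibrillary protein. Cortical astrocytes share most of this machinery but sit in circuits that do not set food intake directly. An interaction asks whether the same diet moved a gene differently in the 2 places, which a comparison within either region cannot answer.

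Region markers matched the region labels. The summed level of 10 transcription factors of the telencephalon was 21.7 to 69.0 CPM (counts scaled to library size) in the hypothalamus libraries and 144 to 587 in the cortex libraries. That of 12 hypothalamic transcription factors was 42.4 to 101 CPM in hypothalamus and 5.88 to 25.6 in cortex. The label astrocytes held in part. The 18 astrocyte markers summed to 6045 to 10451 CPM in hypothalamus on SC, 9217 to 34036 in hypothalamus on HFHS, 31138 to 62346 in cortex on SC and 26940 to 72600 in cortex on HFHS. In hypothalamus on HFHS replicate 2 alone held 34036, with 9217 to 11746 in the others. The 12 oligodendrocyte markers summed to 79726 to 107498 CPM in hypothalamus on SC and 51944 to 140082 on HFHS. In cortex they summed to 29944 to 84484 CPM on SC and 23462 to 93896 on HFHS. Their sum thus stood above that of the astrocyte markers in every hypothalamus library. Markers of microglia, endothelial and ependymal cells were also read in the same libraries, and none of the 12 marker lists had a member at 0 in all 23. In such bulk samples, fewer cells of a type and less RNA per cell cannot be told apart.

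Libraries also differed in the length of the transcripts that were read. Mean transcript length, weighted by reads, was 2947, 2855, 2880.5, 2813 and 2843 bases in 5 hypothalamus libraries on SC, against 2530.3, 2780.1, 2811, 2682 and 2622 bases on HFHS. The diets did not overlap among these libraries, and HFHS was shorter. In cortex the order was turned round, with 2843, 2645, 2639, 2723 and 2624 bases on SC and 2892, 2719, 2958, 2846 and 2963 bases on HFHS, where the ranges overlapped. Replicate 6 of hypothalamus on SC, of cortex on SC and of cortex on HFHS stood apart at 2483, 1922 and 2179 bases. Those 3 libraries are called short below. Leaving them out was decided after the data had been seen, and hypothalamus HFHS replicate 1 at 2530.3 bases, hardly longer than the first of them, was kept. Hypothalamus SC replicate 6 lay below every HFHS library of its region, so the separation there holds only without it. Group levels, ranges and overlaps of single genes below are those of the other libraries unless a short one is named. Most of these genes were named for a small p on the same libraries, so separation of their groups follows largely from that choice. The share of separated genes among all genes tested was not counted.

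**Figure D1:**
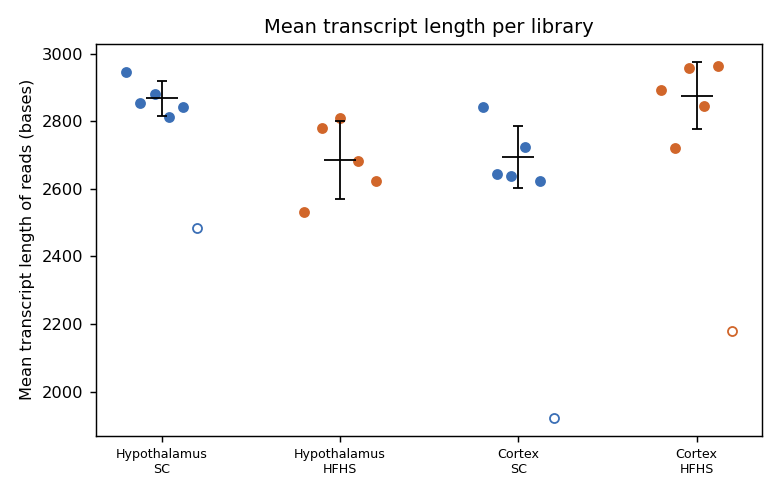
Mean transcript length of the reads (bases, vertical axis) in each library of the 4 groups of region and diet. Open circles are the 3 short libraries, at 2483, 1922 and 2179 bases, and bars show the mean ± SD of the other 5 libraries of a group. Without the open circles, HFHS lies below SC in hypothalamus, while in cortex the ranges overlap with HFHS the longer on average.

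With all libraries no gene passed an adjusted p of 0.05 in edgeR's quasi-likelihood test with Benjamini-Hochberg adjustment, that is 0 of 21574 genes (0%), although 2496 (11.6%) had an unadjusted p under 0.05. DESeq2 called 141 genes on the same libraries, and limma's voom with quality weights called 598. Without the 3 short libraries edgeR called 475 of 21343 genes (2.23%), of which 226 were positive (1.06%) and 249 negative (1.17%), and 4131 genes (19.4%) had an unadjusted p under 0.05. All 475 had the same sign with all libraries, as did 19271 of the 21343 genes tested (90.3%), and both fits share 20 of the 23 libraries. Leaving out 1 more library at a time gave between 25 calls, without cortex HFHS replicate 3, and 904, without hypothalamus HFHS replicate 3. Of the 67 genes described below as called, 14 passed in each of those 20 fits, and none changed sign. The fewest fits that called a gene were 3, for Me1. The median interaction over all genes tested was 0.01 on the log2 scale without the short libraries and 0.06 with them.

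The fitted diet effects of the genes called mostly had opposite signs in the 2 regions. Of the 475, 471 had fitted diet effects of opposite sign in hypothalamus and cortex, against 12527 of the 21343 genes tested (58.7%). This share follows largely from the call, since an interaction is largest where the effects oppose each other, and it does not show a change in each region. Over the 226 positive genes the median fitted diet effect was 0.40 in hypothalamus and -0.62 in cortex on the log2 scale, for a median interaction of 1.04. Over the 249 negative genes it was -0.72 in hypothalamus and 0.95 in cortex, for a median interaction of -1.74. In 363 of the 475 (76.4%) the effect in cortex was the larger in size, against 12378 of all genes tested (58.0%). Diet alone passed the threshold for 272 genes in cortex (1.27% of those tested) and for 1 gene in hypothalamus (0.00469%), the predicted gene Gm5831, which lies outside the naming rule and was picked after its value was seen. Of the 475, 144 were also called for diet in cortex alone and 1 for diet in hypothalamus alone. With all libraries the counts for diet alone were 0 genes in cortex (0%, with 2956 genes, 13.7%, at an unadjusted p under 0.05) and 1 in hypothalamus (0.00464%), both by edgeR.

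**Figure D2:**
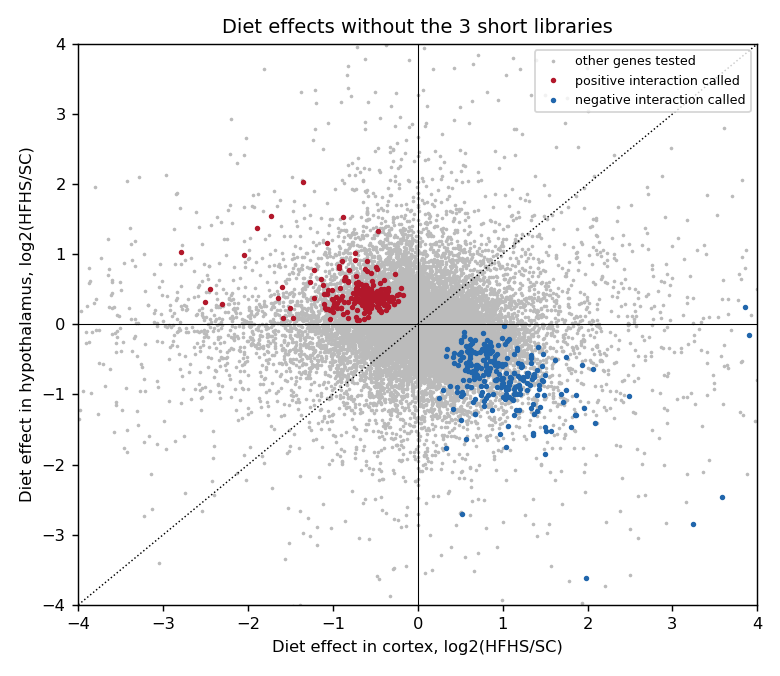
Diet effect in hypothalamus (vertical axis) against that in cortex (horizontal axis), each as the fitted log2(HFHS/SC) of 1 gene without the 3 short libraries; the dotted line marks equal effects. Of the 226 positive genes (red) 224 lie in the upper left, of the 249 negative genes (blue) 247 lie in the lower right, and 306 of the 21343 genes, 14 of them called, lie beyond the axes at 4 on the log2 scale.

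The promoters of some of the strongest calls are shown first, since genes that move together may share letters near their start. Promoters from RefSeq (GRCm38.p6) were matched by symbol to 175 of the 226 positive genes and 192 of the 249 negative ones. For each direction, 3 genes with small p are given from 100 bases before the RefSeq start to 20 after it, 5′ to 3′ on the gene's strand. Eif3i, Wrn and Cnot1 were passed over, since no promoter entry could be used for them. Capitals mark a GC box (GGGCGG) or an ETS site (CCGGAAG) on either strand. Gapdh, on chr6:125165754-125165873 (minus strand), Dnaja2, on chr8:85555342-85555461 (minus strand), and Tufm, on chr7:126487255-126487374 (plus strand), are positive. Ehmt1, on chr2:24919590-24919709 (minus strand), Zfp445, on chr9:122865987-122866106 (minus strand), and Ptprk, on chr10:28074720-28074839 (plus strand), are negative.
Gapdh: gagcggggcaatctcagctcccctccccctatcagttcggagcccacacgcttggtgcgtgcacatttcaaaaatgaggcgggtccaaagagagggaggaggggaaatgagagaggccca
Dnaja2: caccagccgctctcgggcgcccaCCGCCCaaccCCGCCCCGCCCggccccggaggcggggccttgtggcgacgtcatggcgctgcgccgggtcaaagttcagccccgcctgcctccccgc
Tufm: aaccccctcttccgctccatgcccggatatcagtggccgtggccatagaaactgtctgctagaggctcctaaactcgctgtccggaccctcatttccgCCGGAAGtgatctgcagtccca
Ehmt1: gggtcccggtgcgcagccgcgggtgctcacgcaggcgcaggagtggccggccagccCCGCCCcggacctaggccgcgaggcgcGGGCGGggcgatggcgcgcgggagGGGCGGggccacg
Zfp445: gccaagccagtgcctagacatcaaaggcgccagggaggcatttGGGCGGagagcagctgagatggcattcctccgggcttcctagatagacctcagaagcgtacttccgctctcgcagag
Ptprk: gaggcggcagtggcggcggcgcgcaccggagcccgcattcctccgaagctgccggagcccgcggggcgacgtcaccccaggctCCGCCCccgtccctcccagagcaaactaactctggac
Gapdh holds neither set of letters in this stretch, and its RefSeq start lies 694 bases from that in GENCODE. Dnaja2 holds the GC box at 3 places and Ehmt1 at 3, Zfp445 and Ptprk have 1 each, and the ETS letters of Tufm begin 2 bases before its start.

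Over the whole window of 300 bases, on both strands, the ETS letters stood in 42 of the 175 positive promoters (24%), 29 of the 192 negative ones (15.1%) and 14.9% of the 13990 tested genes with a promoter. They stood in 8.86% of all 32851 promoters of the table. The GC box was in 65.7% of positive promoters, 67.2% of negative ones and 57.3% of those of tested genes. CCAAT was in 33.7%, 36.5% and 38.2% in the same order, and TATAAA in 5.71%, 7.29% and 8.39%. The cyclic AMP response element TGACGTCA was in 1.71%, 2.60% and 2.82%, and the E box CACGTG in 11.4%, 10.4% and 9.28%. GC boxes and CCAAT thus occurred in the positive and negative sets at much the same rate, and the ETS letters were more frequent in the positive set. These shares are descriptions of letters and were given no test.

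Genes of glucose breakdown stood on the positive side. Gapdh (ENSMUSG00000057666.18, chromosome 6, 125161715 to 125166467, minus strand), the glycolytic enzyme that reduces NAD, was read at 881, 846, 961, 941 and 977 CPM in hypothalamus on SC and at 1453, 2496, 1957, 1213 and 1128 on HFHS. In cortex Gapdh was at 2321, 3744, 2770.2, 2119 and 2270.0 CPM on SC and at 1654, 1501, 1039.8, 1351 and 1232 on HFHS. Every HFHS library lay above SC in hypothalamus and below it in cortex. The short libraries were the highest of their groups, at 1291 CPM for hypothalamus SC, 4161 for cortex SC and 3267 for cortex HFHS. The interaction of Gapdh was 1.77 ± 0.30 (log2, SE, edgeR, n = 5 a group, adjusted p = 0.0186), with fitted diet effects of 0.84 in hypothalamus and -0.93 in cortex. The fall in cortex alone passed the threshold (adjusted p = 0.0444). With all libraries the interaction was 1.54 (adjusted p = 0.143).

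Of the 21 glycolysis genes tested, 4 were called positive and none negative, and 16 were fitted positive, with a median interaction of 0.60. Over all genes tested 1.06% were called positive and 10833 of 21343 were fitted positive, and the counts of the lists that follow are to be read against these. The 4 calls became 1 with length trend offsets and 0 with the transcript length covariate, which are fits that take transcript length into account and are described at the end. The other 3 were Tpi1, triose phosphate isomerase (1.42 ± 0.30), Gpi1, glucose phosphate isomerase (0.996 ± 0.23) and Pgk1, phosphoglycerate kinase (0.76 ± 0.20). The fitted diet effect of Tpi1 was 0.69 in hypothalamus and -0.73 in cortex. Its HFHS libraries lay above the SC ones in hypothalamus and below them in cortex, as did those of Gpi1. The short cortex HFHS library, at 887 CPM for Tpi1 and 388 for Gpi1, was above the short SC one, at 886.9 and 384. Gapdh has many processed copies in the mouse genome, so its reads may have been divided among them in the deposited estimates.

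Fat-burning genes showed the same direction in smaller number. Of 25 genes of fatty acid oxidation 2 were called, both positive, while 24 had a positive fitted value (median 0.58). With length trend offsets or the length covariate 0 of them were called. Acadl, the long-chain acyl-CoA dehydrogenase of mitochondria, had a mean of 83.1 ± 7.52 CPM in hypothalamus on SC and 147 ± 46.6 on HFHS (SD, n = 5). In cortex it had 281 ± 62.4 on SC and 195 ± 27.9 on HFHS, and its interaction was 1.32 ± 0.27 (SE, edgeR adjusted p = 0.0188). Hadh, the hydroxyacyl-CoA dehydrogenase of the next steps, followed at 0.92 ± 0.24. In fatty acid synthesis 1 of 17 genes was called. This was Me1, malic enzyme, which makes NADPH for that pathway, at 2.00 ± 0.54, though hypothalamus HFHS replicate 2 with 254 CPM stood far above the other 4 at 70.8 to 112. None of the 22 cholesterol synthesis genes was called (median 0.50).

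The mitochondrial machinery pointed the same way. All 74 nuclear subunits of the respiratory chain and ATP synthase had a positive fitted interaction, and 8 were called (median 0.57), against 1.06% called positive and 10833 of 21343 fitted positive over all genes tested. With length trend offsets 71 were fitted positive and 0 called, and with the length covariate 66 and 0. Atp5b, the catalytic beta subunit of ATP synthase, had means of 836 ± 34.9 CPM on SC and 1056 ± 184 on HFHS in hypothalamus (SD, n = 5), and of 1705 ± 311 and 1114 ± 170 in cortex. Neither diet effect of Atp5b passed alone, but the interaction did, at 0.92 ± 0.22 (SE, edgeR adjusted p = 0.0341). Also called were Atp5d (1.05 ± 0.22) and Atp5g3 (1.30 ± 0.30), further ATP synthase subunits, and Uqcrc2 of complex III (0.90 ± 0.21). All 13 proteins encoded in mitochondrial DNA were fitted positive (median 0.50) and none was called.

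At the mitochondrial surface, Vdac1, the pore for ATP and metabolites of the outer membrane, had an interaction of 1.40 ± 0.27 and Tomm22, a receptor of the protein import channel, of 1.06 ± 0.20. Tufm, the elongation factor of mitochondrial protein synthesis, reached 1.06 ± 0.20. Of 78 mitochondrial ribosomal proteins 5 were called, all positive (median 0.39). These were Mrpl9 at 0.99, Mrps35 at 1.03, Mrps23 at 0.88, Mrpl51 at 0.67 and Mrpl52 at 1.11, the last named after its value was seen. With length trend offsets 1 gene of this list was called and with the length covariate 0.

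The longest list, that of cytosolic ribosomal proteins, gave the most calls. All 81 ribosomal protein genes tested were fitted positive and 15 were called (median 0.84, with fitted diet medians of 0.28 in hypothalamus and -0.55 in cortex), against the 1.06% called positive over all genes tested. With length trend offsets 80 were fitted positive and with the length covariate 78, with 0 called in both. Rps2, a protein of the small subunit, was read at 138, 133, 145, 150.5 and 136 CPM in cortex on SC and at 76.6, 98.97, 51.4, 64.1 and 57.5 on HFHS. In hypothalamus it was at 70.1, 72.9, 81.7, 96.2 and 92.1 on SC and at 114, 98.3, 139.5, 70.8 and 81.8 on HFHS. The cortex groups did not overlap and the hypothalamus groups did. Its interaction was 1.27 ± 0.28 (SE, edgeR adjusted p = 0.0312), and it fell in cortex by 0.98 on the log2 scale (adjusted p = 0.0321). The short cortex libraries held 245 CPM on SC and 157 on HFHS, above all others.

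Rpl8 (1.30 ± 0.30), Rps13 (1.27 ± 0.31) and Rpl15 (0.92 ± 0.22), other ribosomal proteins, were called as well. Eif3i, a subunit of the initiation factor that loads messages on the ribosome, had an interaction of 1.05 ± 0.19 and every cortex library on HFHS, the short one apart, lay below those on SC. Ribosomal proteins have many processed pseudogenes, and the division of reads among them is uncertain. Their transcripts are also short, and the median length over the 226 positive genes was 1559 bases.

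Genes of the early secretory pathway gave few calls. Kdelr1 (ENSMUSG00000002778.14, chromosome 7, 45872772 to 45883732, plus strand), a receptor that returns escaped chaperones from the Golgi to the endoplasmic reticulum (ER), had the smallest p of all genes named from the fit with all libraries. It was read at 18.3, 18.7, 21.0, 25.4 and 22.5 CPM in hypothalamus on SC and at 30.1, 45.0, 31.9, 29.5 and 27.6 on HFHS. In cortex Kdelr1 was at 47.3, 37.8, 39.1, 44.8 and 33.9 CPM on SC and at 33.9, 21.6, 21.0, 15.1 and 17.3 on HFHS. The groups did not overlap in either region, in opposite directions, although the lowest SC and the highest HFHS library of cortex were nearly equal and the short cortex SC library, at 28.8 CPM, lay below that HFHS library. Its interaction was 1.50 ± 0.30 without the short libraries (SE, edgeR adjusted p = 0.0188) and 1.50 with them (adjusted p = 0.105).

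The other KDEL receptors did not pass. Kdelr2 had a fitted interaction of 0.92 ± 0.37 and Kdelr3 of 0.10 ± 0.71. Of 20 genes of the KDEL receptor and COPI list 2 were called, Kdelr1 and Copz1, a small subunit of the COPI coat, at 0.58 ± 0.15 (list median 0.10). Neither passed with length trend offsets or the length covariate. Copa, the large alpha subunit of the same coat, had a fitted value of -0.96 ± 0.32 and was not called. Its mean transcript measured 4548 bases and that of Copz1 1687. In the ER lists, 1 of 23 chaperone and unfolded protein response genes was called, the stress transcription factor Atf4 at 1.24 ± 0.29. In the translocation and glycosylation list it was 1 of 23, the channel subunit Sec61g at 1.02 ± 0.27. None of the 22 COPII and p24 genes was called. The medians of the chaperone list (-0.02) and of the COPII list (-0.01) lay so near 0 that another scaling turned their sign.

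Rhoa, the small GTPase that steers actin fibres and cell shape, was also called. It was read at 147, 132, 155, 181 and 167 CPM in hypothalamus on SC and at 238, 205, 302, 209.5 and 203 on HFHS. In cortex it was at 271, 376, 289, 353 and 264 CPM on SC and at 237, 191, 212, 201 and 153 on HFHS. The diets did not overlap in either region, except that the short cortex SC library, at 224 CPM, lay below the highest HFHS one. The interaction was 1.18 ± 0.24 (SE, edgeR adjusted p = 0.0188), and the diet effect in neither region passed alone.

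Of 21 genes of actin assembly 3 were called, all positive, with a list median of 0.30, and 0 with length trend offsets or the length covariate. Actg1, cytoplasmic gamma actin, had 1.18 ± 0.27 and fell in cortex by 0.95 on the log2 scale (edgeR adjusted p = 0.0290). Arpc4, of the Arp2/3 complex that branches filaments, had 0.79 ± 0.17, and Pfn2, a profilin that feeds actin monomers to growing ends, had 1.12 ± 0.27. Actr10, a component of the dynactin complex that moves cargo along microtubules, had 0.96 ± 0.19. With a read-weighted transcript of 3648 bases it was longer than the median of the genes tested, 2543 bases.

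Defence against oxidants and protein turnover gave small positive counts. Of 21 antioxidant genes and Nrf2 targets 4 were called (median 0.71), and 0 with length trend offsets or the length covariate. Hmox1, the inducible haem oxygenase, was read at 9.46, 11.1, 11.6, 10.1 and 11.2 CPM in hypothalamus on SC and at 17.6, 21.3, 20.9, 12.9 and 16.7 on HFHS. In cortex the values were 10.0, 10.4, 12.3, 13.0 and 10.5 CPM on SC and 10.8, 7.35, 6.04, 8.61 and 4.77 on HFHS. Hypothalamus separated by diet, apart from the short SC library at 21.9 CPM, and cortex overlapped. The interaction was 1.29 ± 0.29 (SE, edgeR adjusted p = 0.0312). Nfe2l2, which encodes Nrf2 itself, had 0.71 ± 0.19. The peroxiredoxins Prdx3, of mitochondria, and Prdx2, of the cytosol, had 0.78 ± 0.19 and 1.04 ± 0.29. Of the 20 fits that left out 1 more library, Hmox1 passed in 12, Prdx3 in 10, Nfe2l2 in 5 and Prdx2 in 4.

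Of 29 ubiquitin-conjugating enzymes 3 were called, Ube2r2 (1.02), Ube2a (0.87) and Ube2f (0.71), and of 39 proteasome subunits 2, Psmd8 (0.76) and Psmb5 (0.86). All 5 were positive, against 1.06% over all genes tested, and with length trend offsets or the length covariate none of either list was called. The proteasome median went from 0.24 to 0.0093 with the trend offsets. Dnaja2, a co-chaperone of Hsp70, had 0.91 ± 0.16 and separated by diet in both regions, with 83.9 to 96.8 CPM on SC and 102 to 134 on HFHS in hypothalamus. Its cortex values were 122 to 164 on SC and 83.4 to 108 on HFHS, where the short libraries, at 116 on SC and 122 on HFHS, did not follow this. Ctsl, a lysosomal protease, had 1.24 ± 0.24, Akr1a1, an aldehyde reductase, 0.89 ± 0.17, and Dhrs1, a dehydrogenase of the short-chain family, 1.15 ± 0.22. Chp1, a calcineurin-like calcium-binding protein that supports sodium-proton exchangers, had 1.13 ± 0.21, and Rnf215, a RING-finger protein, 1.44 ± 0.34.

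**Figure D3:**
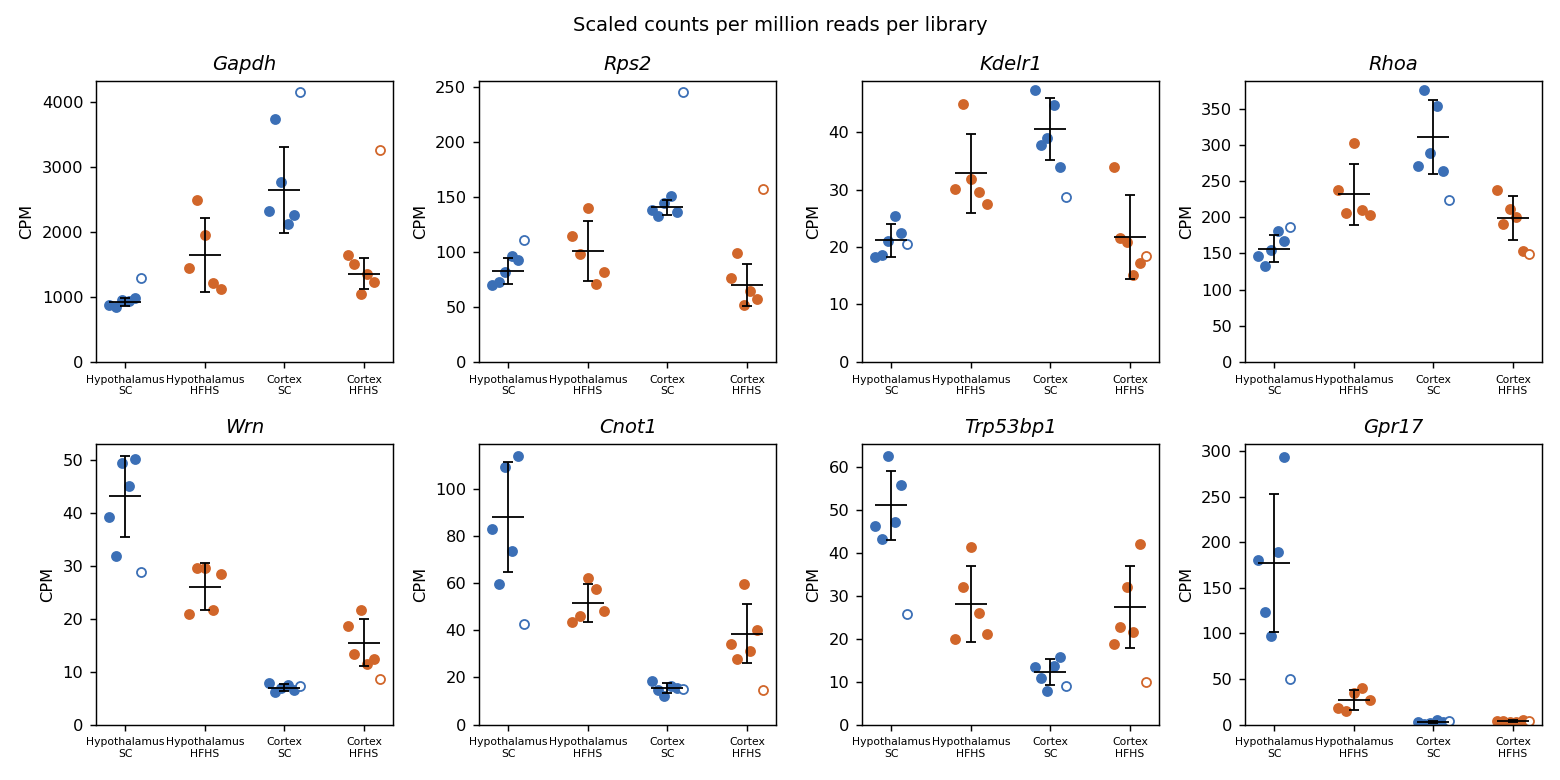
Level (CPM, scaled by effective library size) of 8 genes in each library of the 4 groups of region and diet. Open circles are the short libraries and bars the mean ± SD of the other 5. In the upper row HFHS is higher on average than SC in hypothalamus and lower in cortex. In the lower row Wrn, Cnot1 and Trp53bp1 show the reverse, and Gpr17 is lower on average on HFHS in hypothalamus and near 0 in cortex.

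Among the negative calls was Wrn. Wrn (ENSMUSG00000031583.13, chromosome 8, 33234384 to 33385527, minus strand), the RecQ helicase that unwinds DNA in repair, was read at 39.1, 31.8, 49.5, 45.1 and 50.1 CPM in hypothalamus on SC and at 20.9, 29.7, 29.7, 21.7 and 28.4 on HFHS. In cortex it was at 7.79, 6.13, 6.96, 7.55 and 6.50 CPM on SC and at 18.6, 13.3, 21.6, 11.5 and 12.4 on HFHS. Every HFHS library lay below SC in hypothalamus and above it in cortex. The short libraries were at 28.8 CPM in hypothalamus SC, 7.24 in cortex SC and 8.54 in cortex HFHS. Its interaction was -1.91 ± 0.34 (SE, edgeR adjusted p = 0.0188), and it rose in cortex by 1.18 on the log2 scale (adjusted p = 0.0321). With all libraries it was -1.67 (adjusted p = 0.105).

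Of the 20 RecQ helicase and DNA damage genes 3 were called, all negative, with a list median of -0.62. Over all genes tested 1.17% were called negative. With length trend offsets 1 gene of the list was called and with the length covariate 0. Trp53bp1, which binds chromatin beside double-strand breaks, had -2.06 ± 0.42, with 43.4 to 62.8 CPM on SC and 20.002 to 41.5 on HFHS in hypothalamus. In cortex it had 7.87 to 15.8 CPM on SC and 18.9 to 42.1 on HFHS, so the diets did not overlap in either region. The short libraries went against this, with 25.8 CPM in hypothalamus SC and 9.91 in cortex HFHS. Atm, the kinase that signals breaks, had -1.74 ± 0.43 at low levels of 2.67 to 5.35 CPM in group mean, and was named after its value was seen. Slf2, a partner of the SMC5/6 complex in repair, had -1.71 ± 0.39.

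Cnot1 (ENSMUSG00000036550.16, chromosome 8, 95719451 to 95807464, minus strand), the scaffold of the complex that shortens poly(A) tails, was read at 83.2, 59.7, 109, 73.8 and 114 CPM in hypothalamus on SC and at 43.6, 46.0, 62.4, 57.7 and 48.1 on HFHS. In cortex it was at 18.5, 14.9, 12.3, 16.5 and 15.4 CPM on SC and at 34.1, 27.8, 59.9, 31.4 and 40.2 on HFHS. The cortex groups did not overlap, and in hypothalamus 1 HFHS library exceeded the lowest SC library. The short libraries were at 42.9 CPM in hypothalamus SC, 15.04 in cortex SC and 14.6 in cortex HFHS. The interaction was -2.12 ± 0.41 (SE, edgeR adjusted p = 0.0188), with a rise of 1.35 in cortex (adjusted p = 0.0342).

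Ehmt1, a histone lysine methyltransferase of silent chromatin, had -1.17 ± 0.23 and separated by diet in both regions, with 24.98 to 31.1 CPM on SC and 15.2 to 23.0 on HFHS in hypothalamus. Its cortex levels were 16.9 to 21.2 on SC and 25.4 to 35.7 on HFHS. The short hypothalamus SC library, at 12.1 CPM, lay below every HFHS library. Zfp445, a zinc finger protein that guards imprints, had -1.81 ± 0.36, Sart3, which recycles small nuclear ribonucleoproteins of the spliceosome, -1.42 ± 0.29, and Cabin1, an inhibitor of calcineurin, -1.51 ± 0.31. Of 19 clock genes 1 was called, Clock itself at -1.19 ± 0.32, while 11 were fitted positive (list median 0.18). Clock passed in 4 of the 20 fits that left out 1 more library and had -0.25 with the length covariate. None of 31 SR and hnRNP splicing proteins was called (median 0.05).

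Signalling and adhesion genes among the negative calls were Ptprk, a receptor tyrosine phosphatase at cell contacts (-2.04 ± 0.41), Map3k4, a stress kinase above p38 and JNK (-1.84 ± 0.38), and Gprasp1, which sorts receptors to lysosomes (-1.51 ± 0.31). C2cd5, a calcium-binding protein of insulin-driven glucose transporter traffic in fat cells, had -0.99 ± 0.21. Mfsd4a, a solute carrier-like membrane protein, had -2.20 ± 0.45. Its transcript measured 2419 bases, below the median of all genes tested. Of 13 protocadherins and tip-link genes 2 were called, both negative (median -1.04), against 1.17% called negative over all genes tested. The 2 were Pcdh9 at -1.81 ± 0.45 and Pcdh15 at -2.81 ± 0.62. Pcdh15 lay below the level that the naming rule asks for, at 26.2 ± 9.06 CPM in hypothalamus on SC and 1.29 ± 0.441 in cortex on SC. With length trend offsets or the length covariate 0 genes of this list were called. None of 27 genes of insulin, leptin and growth factor signalling was called (median -0.12), nor of 23 immediate early genes (median 0.13; both medians turned sign with the length covariate), 22 interferon response genes (median 0.51) or 16 reactive astrocyte genes (median 0.61).

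Markers of oligodendrocyte precursors, from which myelinating glia form throughout life, also stood on the negative side. Gpr17 (ENSMUSG00000052229.5, chromosome 18, 31942997 to 31949636, minus strand), a receptor of precursors that are about to mature, was read at 181, 124, 97.0, 189 and 293 CPM in hypothalamus on SC and at 18.3, 14.9, 35.1, 39.8 and 26.9 on HFHS. In cortex it was at 3.16, 0.815, 2.13, 4.88 and 2.95 CPM on SC and at 4.03, 4.02, 3.32, 2.97 and 5.34 on HFHS. The diets were far apart in hypothalamus and overlapped in cortex, where little was read, and the short hypothalamus SC library held 50.2 CPM. The diet effect in hypothalamus alone did not pass the threshold. The interaction was -3.22 ± 0.71 (SE, edgeR adjusted p = 0.0291), and -2.99 with all libraries (adjusted p = 0.135). Tnr, an extracellular matrix protein of the lineage, had -2.10 ± 0.58. These were the 2 called of 9 precursor markers, of which 8 had a negative fitted value (median -2.06). Of the 20 fits that left out 1 more library, Gpr17 passed in 13 and Tnr in 5. Over all genes tested 1.17% were called negative, and with length trend offsets or the length covariate 0 precursor markers were called. Cspg4 at -2.06 ± 0.64 and Pdgfra at -2.20 ± 0.79 were not called. The 9 markers summed to 415 to 1251 CPM in hypothalamus on SC, 98.6 to 385 in hypothalamus on HFHS and at most 49.9 in any cortex library. Whether the share of precursors in the sorted cells had a part in the other negative calls was not tested.

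No marker of mature oligodendrocytes was called (0 of 12, median -1.10). Ependymal markers had a median of -0.97 with 0 of 10 called. In the opposite direction, 17 of 18 astrocyte markers had a positive fitted value (median 1.26) and none was called. Their sum in hypothalamus on HFHS was 34036 CPM in replicate 2 and 9217 to 11746 in the others. In cortex on SC it was 62346 CPM in replicate 2 and 31138 to 41159 in the others, the short one apart. Gfap had 1.36 ± 0.66, Aqp4, the water channel of astrocyte endfeet, 1.22 ± 0.64, and Atp1b2, the target of the beads, 0.82 ± 0.75. Astrocyte markers thus had the sign of the positive genes and oligodendrocyte and precursor markers that of the negative genes. The part of cell content in those calls was not tested. The 10 telencephalic transcription factors were all fitted positive (median 1.12, none called), and their sum in cortex was 332 to 587 CPM on SC and 144 to 301 on HFHS without the short libraries. Choroid plexus (7 genes), erythrocyte (5) and tanycyte (8) markers had medians of 1.71, 1.18 and 0.92, also with none called. The erythrocyte median turned to -1.41, with 0 of 5 genes fitted positive, under the transcript length covariate. For microglia (14), endothelial (12), mural (10), fibroblast (9) and neuron (12) markers the medians were 0.37, 0.06, -0.32, 0.32 and 0.03, none called, and the covariate turned the endothelial median to -0.61 and the neuron median to -0.39.

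**Figure D4:**
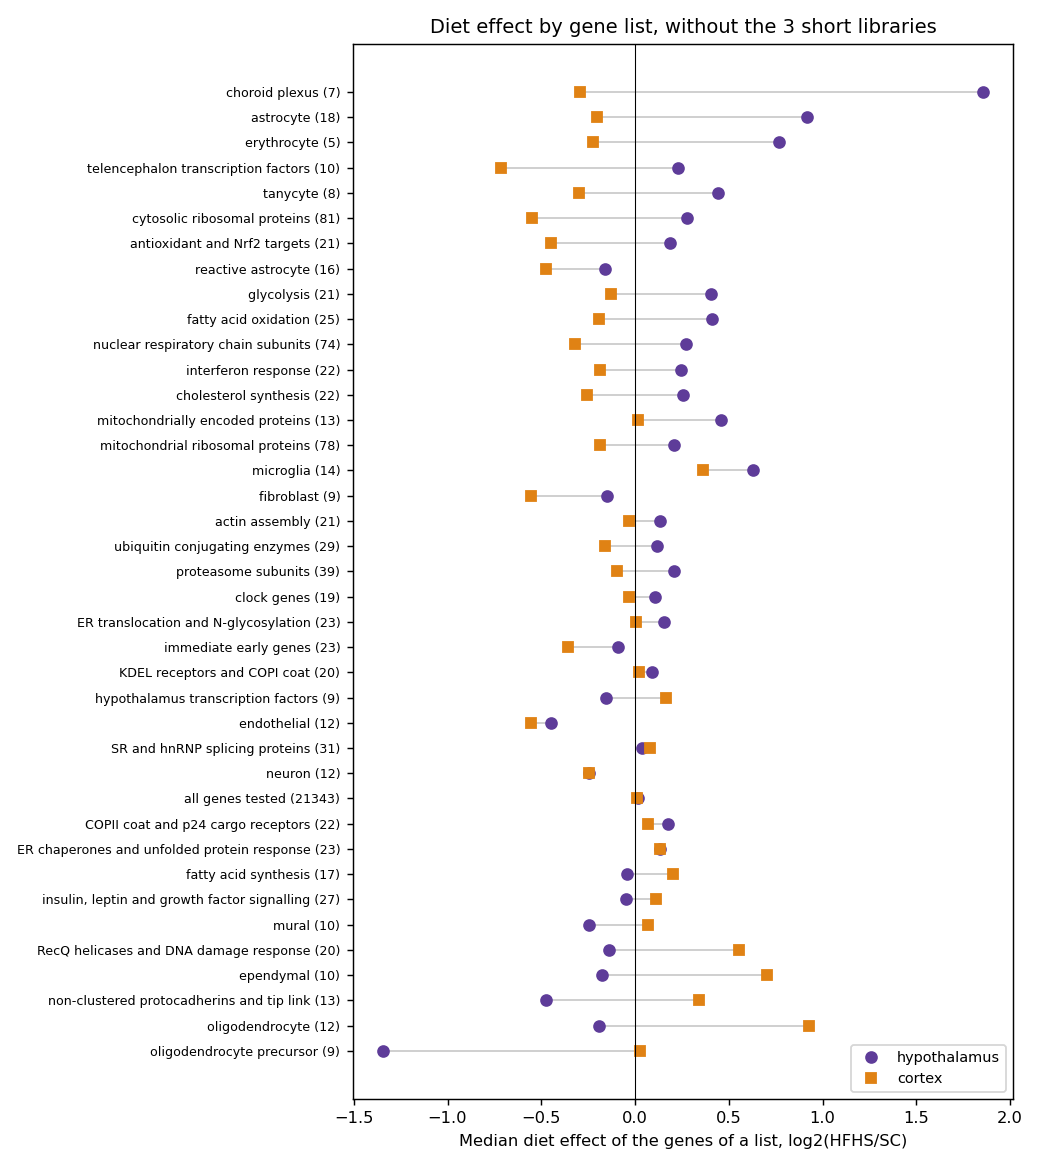
Median fitted diet effect, log2(HFHS/SC), of the genes of each list plotted in hypothalamus (circles) and cortex (squares) without the 3 short libraries, ordered by the median interaction, with the number of genes tested in brackets. Ribosomal proteins lie at 0.28 and -0.55 and oligodendrocyte precursor markers at -1.34 and 0.03, while the median of all genes tested is 0.02 in hypothalamus and 0.01 in cortex.

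Positive and negative calls differed in transcript length. The read-weighted transcript length had a median of 1559 bases (quartiles 1151 and 1953) over the positive genes and 5205 bases (quartiles 4342 and 6672) over the negative ones, against 2543 bases over all genes tested. Among genes of 1000 to 2000 bases, 2.52% were called positive and 0.0751% negative. Among those of 4000 to 6000 bases, 0.152% were positive and 3.59% negative, and over 6000 bases the shares were 0% and 5.76%. Only 14 of the 226 positive genes had transcripts of at least 3000 bases, and only 14 of the 249 negative ones were shorter. Across all 21343 genes the Spearman correlation between transcript length and the interaction was -0.30, with -0.28 for the diet effect in hypothalamus and 0.23 in cortex. These are descriptions across genes that share the same 20 libraries, and genes are not independent replicates. Gene span told the same with lower values (a Spearman correlation of -0.15 for the interaction).

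**Figure D5:**
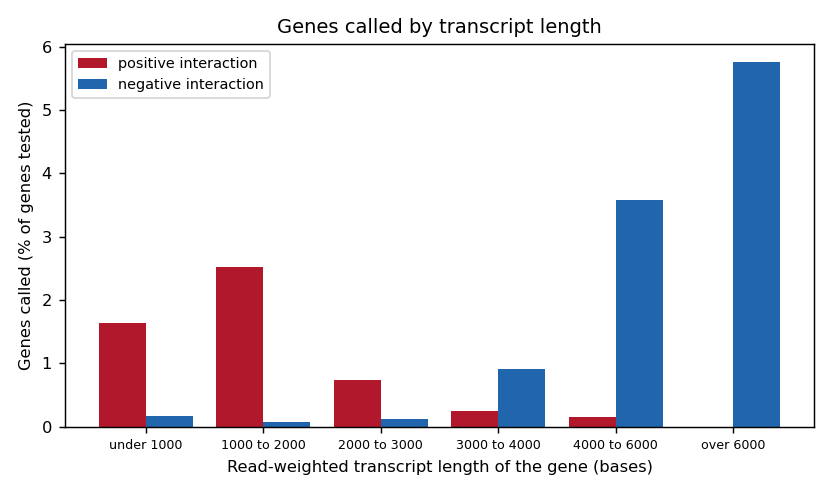
Share of the genes tested (%, vertical axis) that were called positive (red) or negative (blue) in 6 classes of read-weighted transcript length (bases), without the 3 short libraries. Positive calls peak at 2.52% between 1000 and 2000 bases, and negative calls reach 5.76% over 6000 bases.

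Some fits without the short libraries took transcript length into account, and whether length caused any call was not tested. With the deposited effective lengths as offsets 462 genes were called, 375 of them among the 475 of the main fit. These offsets follow only changes of a gene's own effective length between libraries. They cannot take out a trend of a library over genes of different length. With the mean transcript length of each library as a covariate no gene passed in edgeR (0, against 2331 with an unadjusted p under 0.05). With the covariate the sizes moved differently by direction. Of the 48 positive genes described here as called, 13 had an interaction at least as large in that fit, and the median was 89.9% of the size without the covariate. Gapdh had 1.80, Dnaja2 0.96, Tufm 1.18, Kdelr1 1.59 and Rhoa 1.20. Of the 19 negative genes 0 were as large and 11 came to under 50%, with a median of 47.9%. Cnot1 had -0.97, Zfp445 -0.58, Trp53bp1 -0.87 and Wrn -1.19. The covariate itself differed by diet in hypothalamus without overlap, so the length of a library and its diet can be told apart only in part. With a smooth length trend taken out of each library, a choice made after the data were seen, it called 41 genes, 23 positive and 18 negative, 31 of them among the 475. The calls outside the 475 were all positive and had transcripts of 4155 to 6301 bases. The median over the 226 positive genes of the main fit was 1559 bases, so the positive calls of the 2 fits differed in transcript length. In that fit the interactions of Gapdh (1.53), Dnaja2 (0.92), Chp1 (1.08), Actr10 (1.17) and Mrps35 (1.18) were called positive. Ehmt1 (-0.84), Zfp445 (-1.21), Ptprk (-1.63), Trp53bp1 (-1.43), Map3k4 (-1.31) and Mfsd4a (-2.32) were called negative. These were 11 of the 67 genes described here as called. With the trend offsets the 2 directions lay closer together in size. The median was 80.8% of the main size for the 48 positive genes and 69.7% for the 19 negative ones. Of those 19, 1 came to under 50%. Rps2 had a fitted value of 1.01, Kdelr1 of 1.27, Wrn of -1.28, Cnot1 of -1.42 and Gpr17 of -2.71, without passing.

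Hippocampus, which took no part in the contrast, gave a view of the same genes in other libraries, although they shared the model. No gene passed there for diet (0 of 21343 by edgeR, 0%, with 1364 genes, 6.39%, at an unadjusted p under 0.05). The fitted diet effect in hippocampus was positive in 159 of the 226 positive genes and in 23 of the 249 negative ones, against 10793 of all 21343 genes tested (50.6%). Its median was 0.08 over the positive genes and -0.33 over the negative ones, of the same sign as in hypothalamus and smaller. Gapdh had 0.14, Wrn -0.40, Gpr17 -1.09 and Kdelr1 -0.37, the last with the sign of cortex. The hippocampus libraries on HFHS were also the shorter in transcript length, with a median of 2637 bases against 2820.1 on SC, and the Spearman correlation with transcript length across genes was -0.35.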

How the data were processed

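RNA of ACSA2-sorted cells was measured in 35 libraries of 3 regions and 2 diets. The authors deposited, per transcript, an estimated count and a TPM value made with Salmon on GRCm38, per the submitters' processing notes, which also name FastQC; no version is given in the sources used. The deposited lengths and effective lengths per transcript served for transcript length. The deposited TPM values entered no result.

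Estimated counts were summed per gene and rounded, after matching 139852 of 140948 transcripts to GENCODE mouse release 21 (54119 genes); the other 1096 transcripts held 0.214% to 0.535% of the reads of a library and were left out. Libraries held 47578560 to 65982495 reads, so depth differed little. The SMART-Seq v4 kit does not mark strand, so reads of overlapping and antisense genes cannot be told apart, nor can those of close copies. No 2 libraries held identical values.

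edgeR 4.0.16 in R 4.3.3 fitted 1 model of all 6 groups (filterByExpr, TMM, robust quasi-likelihood), with Benjamini-Hochberg adjustment over all genes tested and a threshold of 0.05. SE was taken as the log2 value over the root of F. CPM uses TMM-scaled sizes of all libraries. P values measure the spread between pools. DESeq2 1.42.0, limma 3.58.1, other scalings, filters, length corrections, a replicate block and leaving out libraries were alternatives. The fit was also run on counts simulated from its own model, and no result above rests on that run.

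The contrast, the 39 gene lists, the short libraries and the rules were chosen with earlier results of these data known. Genes were named if their log2 CPM averaged 3 or more and their symbol was no clone name: the 12 smallest p in each direction among those called, the 10 smallest p with all libraries, and up to 4 per list; KDEL receptors, Gfap, Aqp4 and Atp1b2 were added. A part of them goes without description, and some are not reported here.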

Additional observations from a re-analysis of the deposited data

Results flagged for a closer look

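Mean transcript length set 3 libraries apart from the rest of their groups: hypothalamus SC replicate 6 at 2483 bases (the others at 2813 to 2947), cortex SC replicate 6 at 1922 bases (2624 to 2843) and cortex HFHS replicate 6 at 2179 bases (2719 to 2963). Among the other libraries, the named genes gave further values far from their group, on the scale of log2(CPM + 0.5). Cortex SC replicate 2 had Tufm at 6.59 (others 6.05 to 6.18), Ctsl at 8.19 (others 7.81 to 7.82), Copz1 at 7.35 (others 7.05 to 7.10), Atf4 at 6.19 (others 5.73 to 5.80), Gpi1 at 9.28 (others 8.76 to 8.91) and Atp5b at 11.14 (others 10.56 to 10.67). Hypothalamus SC replicate 5 had Vdac1 at 6.80 (others 6.22 to 6.37) and Tnr at 5.94 (others 5.11 to 5.27). Cortex SC replicate 3 had Ehmt1 at 4.12 (others 4.35 to 4.44). Hypothalamus SC replicate 2 had Map3k4 at 4.93 (others 5.23 to 5.26) and Rnf215 at 6.02 (others 5.48 to 5.60). Cortex SC replicate 1 had Mfsd4a at 3.99 (others 2.97 to 3.23). Cortex HFHS replicate 3 had Pcdh9 at 9.45 (others 8.07 to 8.16) and Tpi1 at 7.99 (others 8.53 to 8.63). Hypothalamus HFHS replicate 2 had Gpi1 at 8.52 (others 7.78 to 7.97) and Pgk1 at 8.46 (others 8.05 to 8.13). Cortex HFHS replicate 5 had Uqcrc2 at 7.29 (others 7.46 to 7.52). These were 20 values of 296 groups looked at, and chance alone sets apart about 1 in 20. The cause was not tested.

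The diet effect differed between hypothalamus and cortex, by the test of the difference itself, for 475 genes without the short libraries (edgeR, 5 libraries a group), and for 0 with all libraries. Among the positive genes the log2 interaction was 1.77 for Gapdh, 0.91 for Dnaja2, 1.05 for Eif3i, 1.06 for Tufm, 1.06 for Tomm22, 1.13 for Chp1, 1.15 for Dhrs1, 1.24 for Ctsl, 0.89 for Akr1a1, 1.40 for Vdac1, 1.50 for Kdelr1 and 0.96 for Actr10. It was 1.18 for Rhoa, 0.99 for Mrpl9, 1.44 for Rnf215, 0.58 for Copz1, 1.24 for Atf4, 1.02 for Sec61g, 0.79 for Arpc4, 1.18 for Actg1, 1.12 for Pfn2, 1.42 for Tpi1, 0.996 for Gpi1 and 0.76 for Pgk1. The next values were 1.32 for Acadl, 0.92 for Hadh, 2.00 for Me1, 1.29 for Hmox1, 0.78 for Prdx3, 0.71 for Nfe2l2, 1.04 for Prdx2, 1.02 for Ube2r2, 0.87 for Ube2a, 0.71 for Ube2f, 1.27 for Rps2 and 1.30 for Rpl8. Further values were 0.92 for Rpl15, 1.27 for Rps13, 1.03 for Mrps35, 0.88 for Mrps23, 0.67 for Mrpl51, 1.05 for Atp5d, 0.90 for Uqcrc2, 1.30 for Atp5g3, 0.92 for Atp5b, 0.76 for Psmd8, 0.86 for Psmb5 and 1.11 for Mrpl52. Among the negative genes it was -1.91 for Wrn, -2.12 for Cnot1, -1.17 for Ehmt1, -1.81 for Zfp445, -2.04 for Ptprk, -1.51 for Gprasp1, -1.42 for Sart3, -2.06 for Trp53bp1, -1.84 for Map3k4, -1.51 for Cabin1, -2.20 for Mfsd4a and -0.99 for C2cd5. The other negative values were -3.22 for Gpr17, -1.71 for Slf2, -2.10 for Tnr, -1.81 for Pcdh9, -2.81 for Pcdh15, -1.19 for Clock and -1.74 for Atm.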

How the results depend on the processing

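Without the short libraries, the 475 calls became 1288 with the hypothalamus and cortex groups alone, 1872 with DESeq2, 912 with voom (257 positive), 733 with upper quartile scaling, 861 with a filter of 1 CPM in 5 libraries, 241 with no filter, 0 with the mean transcript length covariate and 41 with length trend offsets; RLE scaling gave 681, effective length offsets 462 and a fit that was not robust 482. With all libraries the 0 calls became 141 with DESeq2, 598 with voom, 1 with upper quartile scaling, 1 with the covariate and 475 without the 3 short libraries together; the other scalings, filters and length offsets gave 0. Diet in cortex alone had 272 calls without the short libraries and 0 with them. The labels do not say whether equal replicate numbers in the 2 regions come from the same animals. Of 11 same-numbered pairs 6 correlated over 0.1 (range -0.11 to 0.38), and 4 of 11 libraries matched their own number best. Pairing thus stayed unresolved, and the main fit took no account of it. With the replicate block the counts were 892 without the short libraries and 299 with all libraries.

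Leaving out 1 library moved the 475 calls to between 25 and 904. On SC, hypothalamus replicates 1, 2, 3 and 5 gave 61, 66, 275 and 60, and cortex replicates 2, 3 and 5 gave 29, 82 and 261. On HFHS, hypothalamus replicates 1, 2, 3 and 5 gave 49, 101, 904 and 229, and cortex replicates 3 and 5 gave 25 and 188. With all libraries the range was 0 to 180, with 180 and 3 calls without replicate 6 of cortex on HFHS and on SC, and 1 without hypothalamus HFHS replicate 3 or cortex HFHS replicate 1. Of 2336 values of the named genes under these alternatives without the short libraries, 574 kept their direction but were no longer called, 14 were newly called and 5 changed sign.

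Without the short libraries, signs turned for 2 genes that were not called: Kdelr3 to -0.58 with the covariate, -0.17 with length trend offsets, and from -0.22 (without cortex HFHS replicate 5) to 0.51 on leaving out 1 library, with -0.12 without cortex SC replicate 4, and Copa to 0.053 with the covariate. With all libraries Kdelr3 turned to -0.014 with trend offsets, Copa to 0.078 with the covariate and Mrpl51 to -0.12 with the covariate and to -0.12 without cortex SC replicate 6, up to 1.31 on leaving out cortex HFHS replicate 6. Of the 39 list medians 2 changed sign under RLE scaling, 0 under upper quartile scaling, 2 with effective length offsets, 3 with length trend offsets (fatty acid synthesis from -0.09 to 0.18, insulin and leptin signalling from -0.12 to 0.46) and 8 with the covariate, among them erythrocyte (1.18 to -1.41) and immediate early genes (0.13 to -0.38). The cause of these changes was not tested. Counting depth limits folds where little was read, as for Gpr17 in cortex at 0.815 to 5.34 CPM.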
